A study of Mus musculus with 3 samples.

Results

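The thrombospondin genes *Thbs1*, *Thbs2*, *Thbs3*, *Thbs4* and *Comp* (the 5th thrombospondin, cartilage oligomeric matrix protein) and *Cd47*, the gene of a thrombospondin receptor, were followed through 3 single-cell libraries of the mouse ascending aorta. These 6 genes, of 32285 in the count matrices, were chosen by symbol after earlier results of the same libraries were known, and values of *Thbs1* were among those that chose them, so the levels below are a description. The libraries came from male C57BL/6J mice killed at P45, each from the pooled aortas of several animals. The WT library came from wild-type littermates, the mgR library from *Fbn1* mgR/mgR mice, which make too little fibrillin-1 from their own *Fbn1* alleles and are used as a model of Marfan syndrome, and the mgR-LOS library from mice of that same genotype given losartan, a blocker of the angiotensin II type 1 receptor, at 0.6 g/L in drinking water from P16. Whether untreated mgR mice were given vehicle is not stated in the labels. With 1 library per condition there is no replicate, so no difference between conditions was tested. Intervals are exact 95% intervals (Poisson for sums of UMIs, Clopper-Pearson for shares of barcodes, conditional binomial for ratios) and cover counting error only.

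Thrombospondins are secreted, calcium-binding glycoproteins that act on cells from the extracellular matrix. Thrombospondin-1 and thrombospondin-2 form trimers and carry properdin-like repeats, through which thrombospondin-1 can activate latent TGF-β and bind CD36, whereas thrombospondin-3, thrombospondin-4 and COMP form pentamers and lack those repeats. CD47 is a membrane protein of most cells that binds the C-terminal part of thrombospondin-1, which dampens nitric oxide signaling in vascular cells, and that shows SIRPα on phagocytes a signal not to engulf the cell.

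All 6 genes code for proteins and lie on 6 different chromosomes (GRCm38, GENCODE): *Thbs1* at chr2:118111876-118127133, *Thbs2* at chr17:14665500-14694235, *Thbs3* at chr3:89215180-89226837, *Thbs4* at chr13:92751590-92794818, *Comp* at chr8:70373558-70382066 and *Cd47* at chr16:49800533-49915010. Their breadth of expression differed. *Cd47* and *Thbs1* reached 10 CPM, the UMIs of a gene per 1000000 UMIs, in all 3 libraries in 4 of the 4 main cell classes described below, *Thbs2*, *Thbs3* and *Comp* in 2 and *Thbs4* in 1. The RefSeq promoter table for GRCm38.p6 held 4 of the 6 genes, and the 250 bases before the start of *Cd47* (chr16:49855404-49855653, plus strand) and of *Thbs2* (chr17:14694263-14694512, minus strand) are shown because these promoters lie far apart in CpG content, with each CG dinucleotide in capitals.
Cd47: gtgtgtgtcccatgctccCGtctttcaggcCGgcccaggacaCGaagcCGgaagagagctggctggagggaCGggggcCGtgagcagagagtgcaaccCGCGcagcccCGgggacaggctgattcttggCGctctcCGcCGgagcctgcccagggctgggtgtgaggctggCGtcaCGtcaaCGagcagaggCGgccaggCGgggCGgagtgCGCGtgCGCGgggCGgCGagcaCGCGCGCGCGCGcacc
Thbs2: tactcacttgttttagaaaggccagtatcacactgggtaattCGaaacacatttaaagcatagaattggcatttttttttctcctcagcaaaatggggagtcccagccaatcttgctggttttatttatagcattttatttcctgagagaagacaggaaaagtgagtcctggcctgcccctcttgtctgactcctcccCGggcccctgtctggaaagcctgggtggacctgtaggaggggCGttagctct
The *Cd47* stretch held 30 CG dinucleotides, more than 94.4% of 27025 promoters, and that of *Thbs2* held 3, more than 29.6%. The *Thbs3* promoter held 6 and the *Thbs4* promoter 19. The RefSeq start of *Cd47* lies inside its longer GENCODE span, so this stretch is not upstream of every annotated transcript. Over all genes the median was 18 for those that reached 10 CPM in all 4 classes, 15 for those that did so in 2 and 11.5 for those that did so in 1. *Thbs4*, with 19 and 1 class, did not follow that order. *Thbs2* and *Thbs3*, with 3 and 6 and 2 classes each, lay below the lower quartile of 8 of the genes in 2 classes. The letters TATAAA, on either strand, stood once in the *Thbs2* stretch and in none of the other members' stretches, and in 12.97% of all promoters.

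The 3 matrices held 7858, 10657 and 14663 barcodes for WT, mgR and mgR-LOS, of which 5361, 8076 and 12721 had 600 to 5000 genes and at most 10% mitochondrial UMIs, with medians of 13640, 12410 and 8334 UMIs. *Fbn1* stood at 361, 150 and 117 CPM over these barcodes, lower in both libraries from mgR/mgR mice. Barcodes were put into 10 classes by lists of marker genes, and 4.14%, 17.4% and 10.2% got no class because their markers were low or came from more than 1 class. The 4 main classes were SMC-like (3633, 2976 and 7789 barcodes), fibroblast-like (1259, 2179 and 2809), endothelial-like (106, 199 and 154) and macrophage and monocyte-like (91, 944 and 543). Between 22 and 46 barcode sequences were shared by each pair of libraries. SMC-like barcodes of the 3 libraries sat mostly in different clusters of the joint clustering: 66.5% of the WT ones in cluster 2, 60.6% of the mgR ones in cluster 3 and 39.1% of the mgR-LOS ones in cluster 1, whose leading genes by fold were globin genes.

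Among classes with at least 50 barcodes, *Thbs1* was highest in fibroblast-like barcodes of WT and mgR-LOS and in neutrophil-like barcodes of mgR, and lowest in SMC-like barcodes of WT, where no lymphocyte class was that large, and in T cell-like barcodes of mgR and mgR-LOS. Neutrophil-like barcodes were too few to enter in WT (4) and mgR-LOS (10). The 4 of WT held 49 *Thbs1* UMIs, and the mgR level of this class was 2.20-fold lower than that of WT (1.57 to 3.03). In the WT library its level was 1013 CPM in fibroblast-like, 239 in endothelial-like, 78.9 in macrophage and monocyte-like and 14.2 in SMC-like barcodes. In the mgR library the levels were 1367 CPM in 53 neutrophil-like barcodes, 1102 in fibroblast-like, 655 in endothelial-like, 283 in macrophage and monocyte-like, 129 in SMC-like, 25.3 in B cell-like and 18.2 in T cell-like barcodes. In the mgR-LOS library they were 714, 153, 93.8 and 49.9 CPM in the 4 main classes in the same order and 7.71 in T cell-like barcodes. The order of the 4 main classes was the same in each library, and only the B and T cell-like levels of mgR overlapped in their intervals among classes of at least 50 barcodes. Fibroblast-like barcodes held 88.9%, 55.4% and 63.2% of all *Thbs1* UMIs of the kept barcodes in WT, mgR and mgR-LOS, and barcodes that got no class held 4.55%, 26.9% and 21.4%, most of them with both SMC and fibroblast markers (4.43%, 19.6% and 19.6%).

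**Figure D1:**
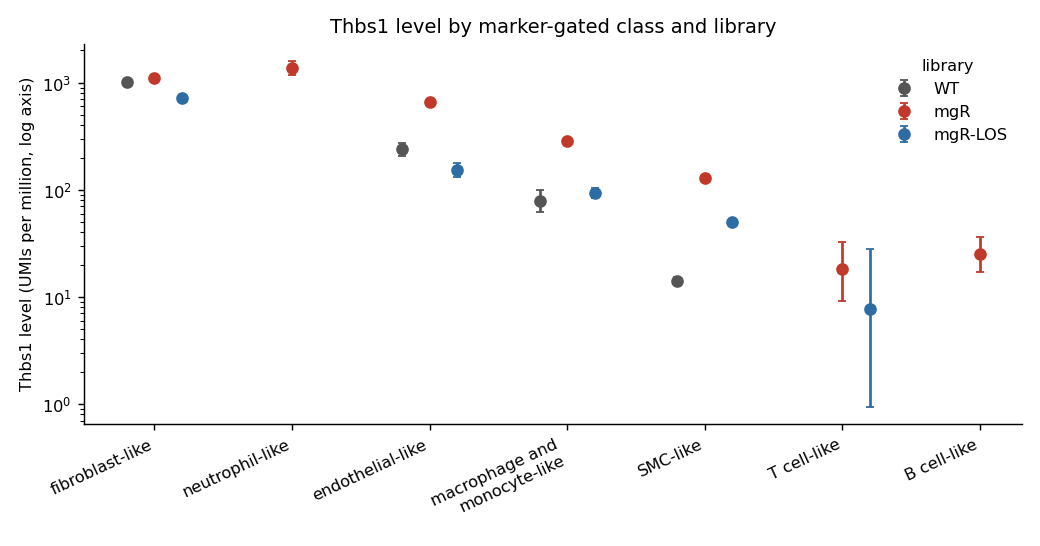
*Thbs1* level in CPM (log axis) in each class with at least 50 barcodes, by library, with exact 95% Poisson intervals. The 4 main classes keep their order in the 3 libraries, and the mgR point lies highest in each, by 9.13 times over WT in SMC-like and 1.09 times in fibroblast-like barcodes.

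Among the 4 main classes, SMC-like barcodes showed the widest spread of *Thbs1* between libraries. The sums were 730 UMIs in WT, 5973 in mgR and 3482 in mgR-LOS, which gave 14.2, 129 and 49.9 CPM. The mgR level was 9.13 times that of WT (8.45 to 9.87), the mgR-LOS level 0.385 times that of mgR (0.370 to 0.402) and 3.52 times that of WT (3.25 to 3.82). *Thbs1* was thus far above WT in mgR and between both in mgR-LOS, and the comparisons of losartan and genotype share the mgR library. It was 1 of 4 members with at least 10 CPM here and the one past 2-fold, and among all genes with at least 10 CPM 3.70% were past 2-fold for mgR over WT, 1.85% for mgR-LOS over mgR and 2.82% for mgR-LOS over WT.

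The share of SMC-like barcodes with a *Thbs1* UMI was lowest in WT and highest in mgR. Thinned to 1000 UMIs each, 0.883% of WT SMC-like barcodes (0.604 to 1.24) held a *Thbs1* UMI, against 6.22% in mgR (5.38 to 7.15) and 2.84% in mgR-LOS (2.48 to 3.23), and unthinned 5.23%, 25.9% and 9.67%, at median depths of 14380, 15310 and 8533 UMIs. In lymphocytes, taken as a reference of low *Thbs1*, the thinned share was 2.48% of T cell-like (0.514 to 7.08) and 0 of B cell-like barcodes (upper bound 2.495) in mgR and 1.56% of T cell-like barcodes in mgR-LOS, at median depths of 4271, 6290 and 3537 UMIs. This reference is imperfect, since it depends on the marker gate. The T cell-like and B cell-like clusters of the joint clustering, drawn without that gate, had 277 and 827 CPM in mgR, from 378 and 1532 *Thbs1* UMIs. Gated T and B cell-like barcodes held 11 and 30 such UMIs, so most UMIs of these clusters came from other barcodes. The WT library had 18 T cell-like barcodes, 0 of them with a thinned UMI (upper bound 18.5), so the WT share in SMC-like barcodes could not be told apart from the lymphocyte share of its own library at this depth. The fibroblast genes *Dcn*, *Lum*, *Dpt* and *Serpinf1* stood in SMC-like barcodes at 0.292% to 2.24% of their fibroblast-like level in mgR, and the same shares of fibroblast *Thbs1* would amount to 3.22 to 24.7 CPM, below the 129 CPM measured. For WT these amounts were 3.52 to 9.18 CPM beside 14.2 measured, and for mgR-LOS 5.04 to 16.7 beside 49.9. *Col1a1*, the other fibroblast gene examined, which SMCs also transcribe, stood at 20.4%, 22.1% and 12.3% of its fibroblast-like level in WT, mgR and mgR-LOS, and its shares would amount to 206, 244 and 87.8 CPM, above the levels measured. The amounts thus lay below the mgR and mgR-LOS levels by 4 of the 5 genes and above them by *Col1a1*. All 5 are markers of the fibroblast class, and the gate limits the fibroblast score of SMC-like barcodes. These amounts are therefore partly set by the gate, as are those given for other classes and for *Comp* below. The part of fibroblast RNA in the result was not tested.

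Few barcodes carried most of the *Thbs1* UMIs of SMC-like cells. In WT 94.8% of them held none and 0.523% held 10 or more, in mgR 74.1% held none and 5.07% held 10 or more, and in mgR-LOS 90.3% held none and 1.16% held 10 or more. These counts were not thinned. Median depths were 14380, 15310 and 8533 UMIs, so a fixed count is harder to reach in mgR-LOS, and the part of depth was not tested. Barcodes with 10 or more held 62.0% of the *Thbs1* UMIs in WT, 76.2% in mgR and 58.0% in mgR-LOS. Barcodes with at least 5 *Thbs1* UMIs per 10000 numbered 34, 168 and 188, of which 14.7%, 39.3% and 15.4% belonged to the modulated subset described below. The fibroblast markers *Dcn*, *Serpinf1*, *Lum* and *Dpt* were higher there in each library than in barcodes without *Thbs1*. In mgR *Dcn* had 152 against 38.3 CPM and *Serpinf1* 60.1 against 11.95. The other fibroblast markers, *Col1a1*, *Col1a2*, *Pdgfra* and *Clec3b*, were lower there in WT and, apart from *Clec3b* in mgR, higher in mgR and mgR-LOS. *Vcam1*, a marker of the modulated subset, was higher too, with 648 against 125 CPM in mgR. Called doublets were 0, 14 and 20 of these barcodes. The part of fibroblast RNA and of doublets in the *Thbs1* level was not tested.

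**Figure D2:**
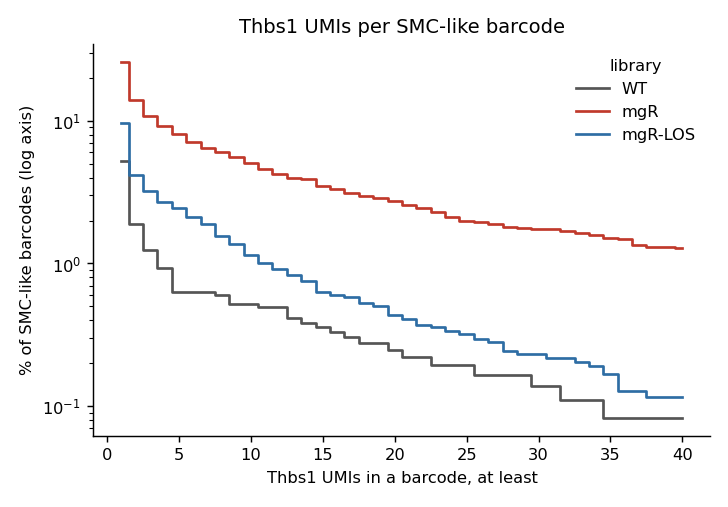
Percentage of SMC-like barcodes (log axis) with at least the number of *Thbs1* UMIs on the horizontal axis, counted without thinning, for each library. The mgR curve starts at 25.9% and stays above mgR-LOS, which starts at 9.67%, and WT, which starts at 5.23%. Median depths were 14380 UMIs in WT, 15310 in mgR and 8533 in mgR-LOS, so a given count is harder to reach in mgR-LOS.

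*Thbs1* was compared within subsets of SMC-like barcodes. In modulated SMC-like barcodes, marked by *Vcam1*, *Spp1*, *Timp1*, *Fn1* and *Tnfrsf11b*, the level was 316 CPM in WT, 368 in mgR and 279 in mgR-LOS, and these barcodes made up 28 of 3633, 410 of 2976 and 199 of 7789. The modulated level was thus high in every library, with mgR at 1.16 times WT (0.980 to 1.39), and the subset was largest in mgR, where it held 45.5% of the *Thbs1* UMIs of SMC-like barcodes. In WT and mgR-LOS the modulated subset held 18.8% and 16.9% of these UMIs. SMC-like barcodes in no marked subset held 40.55%, 13.5% and 37.25% of them in WT, mgR and mgR-LOS. Their share of all UMIs of the class was 17.1%, 10.1% and 37.1%. The other subsets had lower levels than the modulated one in WT. Barcodes rich in *Sost* and *Acan* had 5.84, 58.6 and 23.7 CPM in WT, mgR and mgR-LOS, and those rich in *Tnnt2* 11, 171 and 50.5. Mural barcodes rich in *Rgs5*, a marker of pericytes, had 18.2, 365 and 192 CPM, the mgR value from 30 barcodes. Called doublets were 9 of 171, 9 of 30 and 20 of 238 of these mural barcodes, and their part was not tested. Without the modulated subset the mgR level was still 7.23 times that of WT, and mgR-LOS stood at 0.508 times mgR, no longer past 2-fold. The single clusters did not all show this order. In cluster 4, led by *Corin*, *Tnnt2* and *Des*, SMC-like barcodes had 77.4, 270 and 103 CPM. In cluster 3 the 42 WT barcodes had 127 CPM against 70.1 in mgR and 80.3 in mgR-LOS, and in cluster 5 the 23 WT barcodes had 113 CPM against 23.7 and 15.1. The WT level thus exceeded the others in the clusters 3 and 5, where few WT barcodes lay. Cluster 9, which got no name from its markers, held 26 SMC-like barcodes of mgR at 1116 CPM and 70 of mgR-LOS at 1136 CPM. These held 5.59% and 22.1% of the *Thbs1* UMIs of the class, and without them its levels were 122.9 and 39.2 CPM. Cluster 11 held 38.8% of these UMIs in mgR and 7.12% in mgR-LOS, and cluster 4 held 13.4% and 42.9%.

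In fibroblast-like barcodes the *Thbs1* total hid differences between subsets. The class as a whole had 1013, 1102 and 714 CPM, mgR over WT at 1.09 (1.07 to 1.11), mgR-LOS over mgR at 0.648 (0.636 to 0.660) and mgR-LOS over WT at 0.704 (0.689 to 0.720), none of them past 2-fold. Barcodes rich in *Chad* and *Fmod*, genes of tendon and cartilage matrix, had by far the highest level, 3417 CPM in WT, 3716 in mgR and 4173 in mgR-LOS. They were 146 of 1259 fibroblast-like barcodes in WT (11.6%), 73 of 2179 in mgR (3.35%) and 63 of 2809 in mgR-LOS (2.24%), and held 53.0%, 12.9% and 16.3% of the fibroblast *Thbs1* UMIs. Of these barcodes 3, 1 and 12 were called doublets, whose part was not tested. In the other subsets mgR was higher. Barcodes rich in *Pi16*, an adventitial marker, had 56.3, 304 and 210 CPM, with mgR at 5.39 times WT (4.46 to 6.55). Those rich in *Gdf10* and *Hsd11b1* had 141, 817 and 266 CPM, with mgR at 5.80 times WT (4.93 to 6.89) and mgR-LOS at 0.326 times mgR (0.306 to 0.346). The remaining fibroblast-like barcodes had 735, 1412 and 899 CPM. With each subset weighted by its share of UMIs in WT, a weighting chosen after the data were seen, the class levels would be 1013, 1569 and 1266 CPM, and mgR-LOS would lie above WT at 1.25 times instead of below it.

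**Figure D3:**
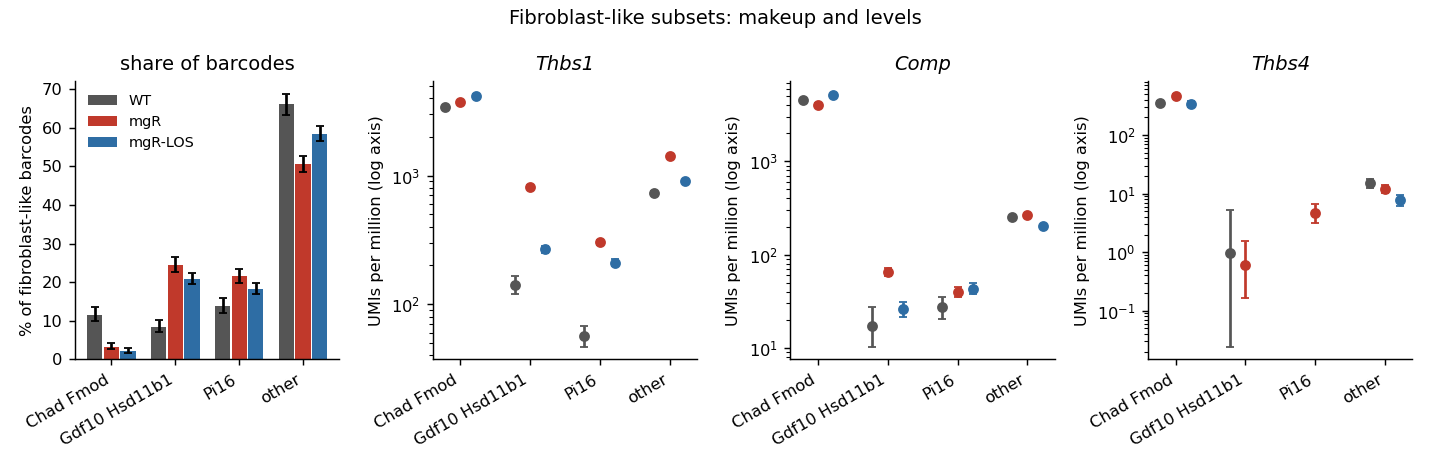
Share of fibroblast-like barcodes in each subset (bars, with exact 95% binomial intervals) and level of *Thbs1*, *Comp* and *Thbs4* in CPM (points, log axes, with exact 95% Poisson intervals; a level of 0 is not drawn), by library. The *Chad* and *Fmod* rich share is 11.6% in WT, 3.35% in mgR and 2.24% in mgR-LOS, while the levels of the 3 genes inside that subset differ by less than 1.5 times between libraries.

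Endothelial-like and macrophage and monocyte-like barcodes also had most *Thbs1* in mgR. In endothelial-like barcodes 204, 1095 and 182 UMIs gave 239, 655 and 153 CPM, with mgR at 2.74 times WT (2.36 to 3.20) and mgR-LOS at 0.234 times mgR (0.199 to 0.274). By the share of *Dcn* found in them, fibroblast RNA would give 96.4, 86.2 and 104 CPM of these levels, and by *Lum*, *Dpt*, *Serpinf1* and *Col1a1* 1.58 to 34.3, 6.76 to 31.3 and 3.56 to 37.3 CPM. Luminal endothelial-like barcodes, marked by *Vwf* and *Cytl1* among others, carried this pattern with 448, 1395 and 300 CPM and held 76.5%, 82.4% and 80.8% of the endothelial *Thbs1* UMIs, whereas lymphatic ones had 185, 141 and 20.8 CPM from 13, 57 and 23 barcodes. In macrophage and monocyte-like barcodes 70, 2348 and 364 UMIs gave 78.9, 283 and 93.8 CPM, with mgR at 3.58 times WT (2.83 to 4.61) and mgR-LOS at 0.332 times mgR (0.296 to 0.371). With named clusters in place of the marker gate the ratio of mgR over WT was 1.74, no longer past 2-fold. Resident macrophage-like barcodes, marked by *Folr2* and *F13a1* among others, were low with 4.08, 44.5 and 18.4 CPM, the WT level from 2 UMIs. Monocyte and dendritic-like barcodes were high, with 1035 CPM in 76 barcodes of mgR and 406 in 29 of mgR-LOS. The WT library held 1 such barcode. They held 27.9% of the *Thbs1* UMIs of the class in mgR and 26.65% in mgR-LOS. Barcodes of the class in neither subset held most, 97.1% in WT, 63.7% in mgR and 61.5% in mgR-LOS. In WT, mgR and mgR-LOS, endothelial-like barcodes with 10 or more *Thbs1* UMIs numbered 4, 24 and 5. They held 70.6%, 81.7% and 56.6% of the endothelial *Thbs1* UMIs. Among macrophage and monocyte-like barcodes, 3, 54 and 10 had that many and held 64.3%, 82.0% and 77.2%. The counting intervals leave out this spread between barcodes. Over subsets of the 4 classes with at least 20 barcodes in both libraries, *Thbs1* was higher in mgR than in WT in 15 of 15 and at least 2-fold higher in 11, and it was lower in mgR-LOS than in mgR in 16 of 17 and at least 2-fold lower in 11, the exception being the *Chad* and *Fmod* rich fibroblasts. The first count left out lymphatic barcodes, 13 in WT, and monocyte and dendritic-like ones, 1 in WT. The lymphatic level was 1.31-fold lower in mgR than in WT, with an interval that spans 1 (0.756 to 2.16), so its direction is not settled. No share over all genes stands beside these counts, which only describe *Thbs1*. The genes whose level followed *Thbs1* most closely over 16 combinations of class and library with at least 50 barcodes were *Mgst1*, *Cebpd*, *Selenon*, *Cars* and *Slc44a1*, with Pearson's r from 0.862 to 0.890 on log2(CPM + 1). These combinations share libraries and 11994 genes were searched, so the r values only rank genes.

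*Thbs2* and *Thbs3*, the latter a pentameric relative without the type 1 repeats of *Thbs2*, were highest in fibroblast-like barcodes and stayed within 2-fold there and in SMC-like barcodes. *Thbs2* had 172, 229 and 184 CPM in fibroblast-like and 29.9, 31.4 and 25.7 CPM in SMC-like barcodes, in WT, mgR and mgR-LOS. Its fibroblast ratio of mgR over WT was 1.33 (1.26 to 1.39) and its SMC ratio 1.05 (0.976 to 1.13). Within fibroblast subsets *Thbs2* differed in direction, at 0.568 times WT (0.491 to 0.656) in the *Chad* and *Fmod* rich barcodes of mgR and at 1.82 to 1.87 times in the other 3 subsets. *Thbs3* had 51.1, 79.3 and 80.7 CPM in fibroblast-like and 21.8, 16.8 and 18.6 CPM in SMC-like barcodes. It was thus higher in mgR in the fibroblast-like class as a whole, at 1.55 times WT (1.42 to 1.69), and lower in SMC-like barcodes, at 0.769 times (0.701 to 0.844). After thinning each barcode to 1000 UMIs the SMC-like ratio was 1.08, so its direction was not stable at this depth. Fibroblast subsets differed in direction here too. *Gdf10* and *Hsd11b1* rich barcodes were 1.38-fold lower in mgR than in WT (1.06 to 1.77), and *Chad* and *Fmod* rich ones 1.11-fold lower (0.735 to 1.71). Over 11 subsets of the main classes *Thbs3* was higher in mgR than in WT in 3. Its highest subset was the *Pi16* rich fibroblasts, with 88.4, 155 and 127 CPM. *Thbs2* was also past 2-fold in endothelial-like barcodes, from 5 UMIs in WT, 38 in mgR and 34 in mgR-LOS, but after thinning each barcode to 1000 UMIs the ratio of mgR over WT was 0.803 in place of 3.88, so its direction was not stable at this depth. *Thbs3* in endothelial-like barcodes rested on 10, 6 and 6 UMIs. The closest pattern to *Thbs2* was that of *Pcdhgc3* (r = 0.967), followed by *Scarf2*, *Lrig3*, *Mypop* and *C1qtnf7*, and the closest to *Thbs3* that of *Pde1a* (r = 0.982), followed by *Lamc3*, *Cdh2*, *Gli2* and *Tafa5*.

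**Figure D4:**
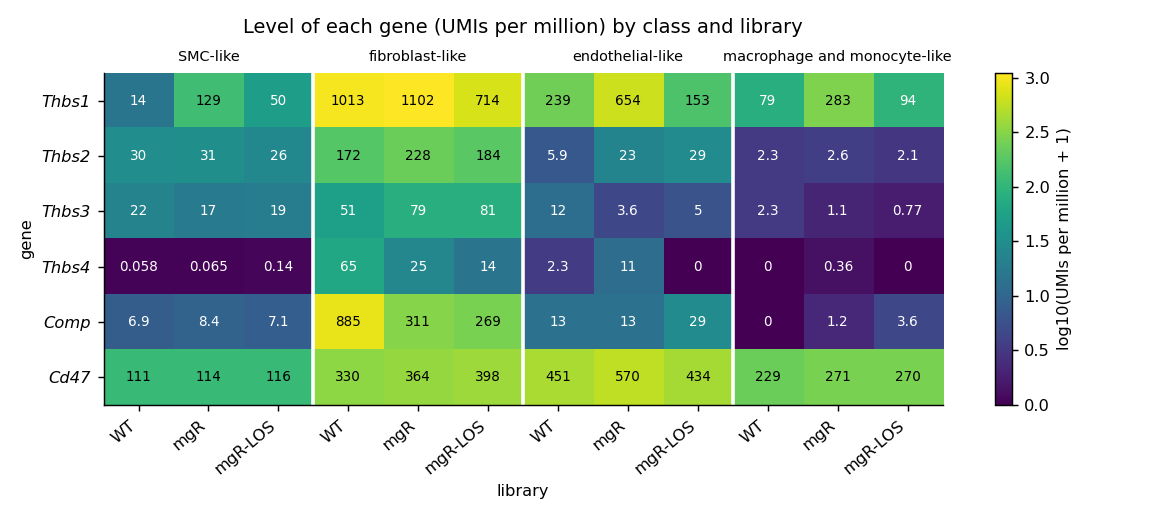
Level of each gene in CPM (numbers in the cells; color is log10 of the level plus 1) in the 4 main classes of the 3 libraries. *Thbs4* and *Comp* are highest in fibroblast-like barcodes, and there in WT, and *Cd47* is present in every column, from 111 to 570 CPM.

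*Comp* and *Thbs4*, which help to build cartilage and tendon matrix, were highest in fibroblast-like barcodes and were lower there in both libraries from mgR/mgR mice. *Comp* had 885, 311 and 269 CPM in fibroblast-like barcodes, with mgR at 0.352 times WT (0.342 to 0.362) and mgR-LOS at 0.304 times WT (0.295 to 0.313), and 6.89, 8.36 and 7.12 CPM in SMC-like barcodes, where the shares of *Dcn*, *Lum*, *Dpt* and *Serpinf1* would amount to 3.07 to 8.02, 0.910 to 6.98 and 1.90 to 6.30 CPM and that of *Col1a1* to 180, 68.9 and 33.1. The WT level lay within the first range, the mgR and mgR-LOS levels above theirs, and all 3 below the amounts by *Col1a1*. *Thbs4* had 64.9, 24.9 and 13.7 CPM in fibroblast-like barcodes, with mgR at 0.383 times WT (0.347 to 0.424) and mgR-LOS at 0.550 times mgR (0.480 to 0.629), and at most 0.143 CPM in SMC-like barcodes. The *Chad* and *Fmod* rich subset held 81.7%, 49.9% and 53.4% of the fibroblast *Comp* UMIs and 85.5%, 71.2% and 69.1% of those of *Thbs4*. There *Comp* had 4604, 4068 and 5160 CPM, with mgR at 0.884 times WT (0.852 to 0.916), and *Thbs4* 353, 464 and 339 CPM, with mgR at 1.31 times WT (1.17 to 1.47). Inside this subset, whose share of barcodes was 11.6% in WT and 3.35% in mgR, neither gene was past 2-fold between libraries. Smaller differences remained there, some in the direction of the whole class and some against it. *Comp* was lower in mgR than in WT, and *Thbs4* was 1.37-fold lower in mgR-LOS than in mgR (1.16 to 1.61), as in the class. Against the class, *Comp* was higher in mgR-LOS than in WT and mgR, and *Thbs4* was higher in mgR than in WT. In the remaining fibroblast-like barcodes *Comp* had 252, 267 and 200 CPM, and in those rich in *Gdf10* and *Hsd11b1* 17.2, 65.3 and 25.9. With WT weights for the subsets, mgR over WT came to 0.922 for *Comp* and 1.25 for *Thbs4* and mgR-LOS over WT to 1.07 and 0.895. The joint clustering gave another picture. Its cluster 6, led by *Chad*, *Npy* and *Bglap*, had 1955, 1077 and 894 CPM of *Comp* in 455, 453 and 818 barcodes. *Thbs4* had 147, 113 and 44.2 CPM there, so inside that cluster both genes were lower in mgR and mgR-LOS than in WT. Of 6 members with at least 10 CPM in fibroblast-like barcodes, *Comp* and *Thbs4* were past 2-fold for mgR over WT, where 4.57% of all genes were, and for mgR-LOS over WT, where 3.41% were. None was for mgR-LOS over mgR, where 1.70% were. The closest patterns were those of *Lum* (r = 0.960), *Mmp2*, *Gfpt2*, *Fst* and *Cilp* for *Comp* and of *Fgf18* (r = 0.962), CR974586.4, *Npy*, *Dio2* and *Zfp185* for *Thbs4*.

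*Cd47* was present in every class and differed more between classes than between libraries. Its level was 111, 114 and 116 CPM in SMC-like barcodes, 330, 364 and 398 in fibroblast-like, 451, 570 and 434 in endothelial-like and 229, 271 and 270 in macrophage and monocyte-like barcodes of WT, mgR and mgR-LOS. The SMC-like level was the lowest of the main classes in each library, with mgR over WT at 1.03 (0.992 to 1.07) and mgR-LOS over mgR at 1.02 (0.982 to 1.05). In mgR the order was neutrophil-like (656), endothelial-like, B cell-like (470), T cell-like (405), fibroblast-like, macrophage and monocyte-like and SMC-like, and the intervals of neutrophil-like and endothelial-like, of B and T cell-like and of T cell-like and fibroblast-like barcodes overlapped, while in mgR-LOS those of endothelial-like, fibroblast-like, T cell-like (355) and macrophage and monocyte-like barcodes each overlapped the next. Lymphatic endothelial-like barcodes had the highest level of the endothelial subsets, with 1098, 975 and 914 CPM, against 391, 342 and 333 in luminal ones. No ratio of *Cd47* in a main class was past 2-fold, and over 15 subsets mgR over WT ran from 0.875 to 1.48. The share of SMC-like barcodes with a *Cd47* UMI, thinned to 1000 UMIs, was 10.1%, 10.8% and 10.1%. The closest patterns were those of *Myl12b* (r = 0.971), *Nfatc1*, *Gbp9*, *Plscr1* and *Lgals9*.

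**Figure D5:**
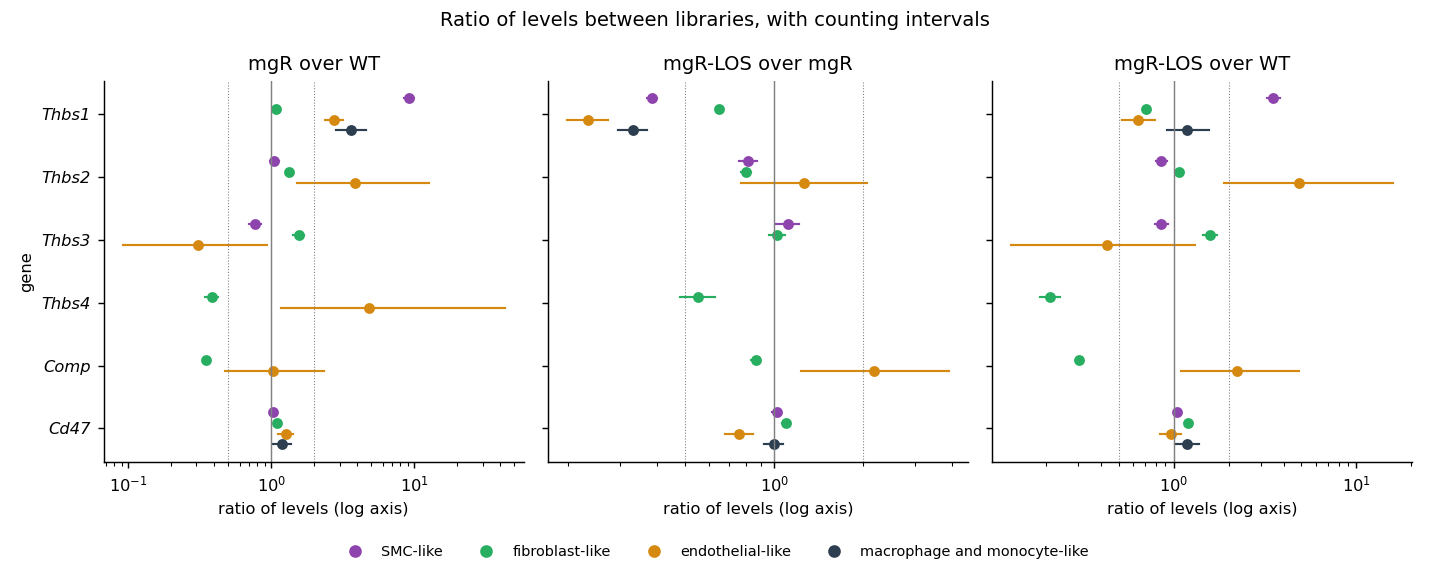
Ratio of levels between libraries (log axis) for each gene in each main class with at least 10 CPM in either library, with exact 95% conditional binomial intervals and dotted lines at 2-fold. *Thbs1* lies right of 1 in every class for mgR over WT and left of 1 in every class for mgR-LOS over mgR, and *Cd47* stays within 2-fold; *Thbs4* in endothelial-like barcodes of mgR-LOS, with 0 UMIs, is not drawn.

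Over the members and main classes, 8 of 18 pairs with at least 10 CPM were past 2-fold for mgR over WT (5 higher, 3 lower), 5 of 17 for mgR-LOS over mgR (1 higher, 4 lower) and 6 of 17 for mgR-LOS over WT (3 higher, 3 lower), beside 5.96%, 3.20% and 6.09% of all pairs of genes and classes. Since earlier results chose the members, these counts are no evidence about the family. *Thbs1* gave 3 of the 8 pairs, 3 of the 5 and 1 of the 6. In endothelial-like barcodes 4 of 6, 3 of 5 and 3 of 5 members were past 2-fold, beside 8.68%, 6.90% and 10.0% of all genes, and apart from *Thbs1* these rested on 0 to 38 UMIs per library. In macrophage and monocyte-like barcodes 1 of 2, 1 of 2 and 0 of 2 members were, beside 6.55%, 1.88% and 7.63% of all genes.

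The receptors and partners of thrombospondins had shares of pairs past 2-fold near those of all genes. Of 45 pairs of a gene and a main class, 2 were higher and 0 lower for mgR over WT (4.44%, beside 5.96% of all pairs), of 46 pairs 0 were higher and 1 lower for mgR-LOS over mgR (2.17%, beside 3.20%), and of 45 pairs 2 were higher and 1 lower for mgR-LOS over WT (6.67%, beside 6.09%). The pairs past 2-fold for mgR over WT were *Itga6*, the laminin-binding integrin α6, in macrophage and monocyte-like barcodes (74.8 against 21.4 CPM) and *Itgb3*, the integrin β3 subunit, in fibroblast-like barcodes (11.3 against 4.39 CPM). *Cd36*, the thrombospondin-1 receptor of endothelium and macrophages, had 388, 352 and 407 CPM in endothelial-like and 290, 202 and 284 CPM in macrophage and monocyte-like barcodes of WT, mgR and mgR-LOS, and at most 1.504 CPM in SMC-like barcodes. *Lrp1*, which takes up thrombospondins, had 815, 830 and 932 CPM in fibroblast-like barcodes. Of the partners of *Cd47*, 1 of 11 pairs was past 2-fold for mgR over WT, *Sirpa* in endothelial-like barcodes (66.9 against 30.5 CPM), and *Sirpa* was highest in macrophage and monocyte-like barcodes, at 192, 263 and 225 CPM. Among the genes of nitric oxide signaling 2 of 13 pairs were higher and 0 lower for mgR over WT, and for mgR-LOS over mgR 2 of 14 were higher, of which *Gucy1a1*, a subunit of soluble guanylate cyclase, had 261, 210 and 424 CPM in SMC-like barcodes.

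Of 50 pairs of other matricellular genes and main classes, 10 were past 2-fold higher and 1 lower for mgR over WT, and of 49 pairs 1 was higher and 14 lower for mgR-LOS over mgR, which is 22% and 30.6% of them, beside 5.96% and 3.20% of all pairs of genes and classes, the shares that also stand behind the counts of the lists below. The extremes for mgR over WT in SMC-like barcodes were *Spp1*, osteopontin, with 19.8 against 0.912 CPM, *Ccn4* with 21.4 against 2.66 and *Smoc2* with 25.7 against 3.30. *Spp1* is also a marker of the modulated subset. Of the genes induced by serum, TGF-β or YAP, 7 of 33 pairs were higher and 0 lower for mgR over WT and 2 of 34 higher and 10 lower for mgR-LOS over mgR, where *Ccn1* and *Ccn2* are counted in this list and in the matricellular one, with *Ankrd1*, a target of YAP, at 52.0 CPM in mgR against 17.3 in WT in SMC-like barcodes. For mgR-LOS over WT 0 of 34 of these pairs were higher and 3 lower, beside 6.09% of all pairs past 2-fold. Of 46 matricellular pairs 5 were higher and 4 lower in that comparison. *Ccn2* in SMC-like barcodes had 2083 CPM in WT, 2187 in mgR and 669 in mgR-LOS. Of proteases that cut or bind thrombospondins 4 of 22 pairs were higher and 1 lower for mgR over WT, among them *Adamts4* in fibroblast-like barcodes (22.8 against 8.13 CPM) and, as the lower one, *Mmp9* in macrophage and monocyte-like barcodes (13.1 against 66.5 CPM). Of the cartilage partners of *Comp* 3 of 11 pairs were higher and 2 lower for mgR over WT, with *Chad*, a marker of the subset above, at 496, 70.0 and 70.4 CPM in fibroblast-like barcodes. *Col2a1*, the collagen of cartilage, ran the other way with 10.3 CPM in WT and 59.95 in mgR, and had 0.854 in mgR-LOS. For mgR-LOS over WT 1 of 11 cartilage pairs was higher and 6 lower, and of 22 protease pairs 2 were higher and 1 lower. Of 60 pairs of genes known to rise during tissue digestion, 2 were higher and 4 lower for mgR over WT. The higher ones were both in endothelial-like barcodes, where *Thbs1* was higher too, and in SMC-like barcodes 0 of 15 were higher and 2 lower, the heat shock genes *Hspa1a* and *Hspa1b*; their part in the *Thbs1* levels was not tested.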

How the data were processed

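The deposited values are raw UMI counts, which the authors made from droplet libraries with a 3′ kit, with Cell Ranger 5.0.1 for WT and mgR and 6.0.1 for mgR-LOS per the file headers (the submitters' processing notes name Cell Ranger 6.0.1) on GRCm38. The filter on barcodes asked for 600 to 5000 genes and a mitochondrial share of UMIs of at most 10%. Each barcode took the class with the highest marker score (mean log count per 10000 UMIs, scaled to the 50 highest barcodes) where it was at least 0.35 and the second score at most 0.5 of it, and a subset where its score was at least 0.4. These thresholds were set after the data were seen. Doublets were called by neighborhood to artificial doublets (230, 522 and 1295 barcodes) and removed only in an alternative. UMIs were summed by class and library and scaled to CPM. A gene was called past 2-fold with at least 10 CPM in either library.

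Members, marker lists and gene lists were chosen with earlier results of these data known. Named genes are the 6 members, up to 3 genes of each list with the largest ratio, and the 5 genes closest to each member by Pearson's r. Genes outside this rule (*Dcn*, *Lum*, *Dpt*, *Serpinf1*, *Col1a1*, *Col1a2*, *Pdgfra*, *Clec3b*, *Fbn1*, *Cd36*, *Lrp1*, *Chad*, *Fmod* and those that mark subsets or clusters) were named as markers, or after their values were seen. Python 3.11.15 was used with numpy 2.4.6, scipy 1.17.1, pandas 2.3.3, scikit-learn 1.9.0, leidenalg 0.10.2 and matplotlib 3.10.9. Scripts were tested on simulated data.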

Additional observations from a re-analysis of the deposited data

Results flagged for a closer look

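With 1 library per condition no library could be compared with others of its group. Results were picked out where the interval of a ratio lay above 1 in 1 class and below 1 in another, which is a difference between classes that was not tested. For mgR-LOS over WT, *Thbs1* was 3.52 in SMC-like, 0.704 in fibroblast-like and 0.640 in endothelial-like barcodes. *Thbs2* was 4.88 in endothelial-like (34 against 5 UMIs), 1.06 in fibroblast-like and 0.857 in SMC-like barcodes. *Thbs3* was 1.58 in fibroblast-like and 0.853 in SMC-like barcodes, and for mgR over WT 1.55 in fibroblast-like, 0.769 in SMC-like and 0.306 in endothelial-like barcodes. The 0.769 became 1.08 after thinning each barcode to 1000 UMIs. *Thbs4* for mgR over WT was 4.85 in endothelial-like (19 against 2 UMIs) and 0.383 in fibroblast-like barcodes. *Comp* was 2.17 in endothelial-like (34 against 22 UMIs) and 0.864 in fibroblast-like barcodes for mgR-LOS over mgR. For mgR-LOS over WT it was 2.22 (34 against 11 UMIs) and 0.304. Its endothelial-like levels were 12.9, 13.15 and 28.6 CPM in WT, mgR and mgR-LOS. By the share of *Dcn*, fibroblast RNA would give 84.2, 24.35 and 39.2 CPM there. By *Lum*, *Dpt*, *Serpinf1* and *Col1a1* it would give 1.38 to 29.9, 1.91 to 8.85 and 1.34 to 14.1 CPM. The part of fibroblast RNA was not tested.

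Barcodes with no class, which enter no comparison above, also held *Thbs1* above the WT level of such barcodes. Those with both SMC and fibroblast markers had 371 CPM in WT (171 barcodes), 1251 in mgR (775) and 572 in mgR-LOS (914), with 40.9%, 22.3% and 50.1% of them called doublets, whose part was not tested, and those with low markers 68.6 CPM in WT (32 barcodes) and 864 in mgR (386).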

How the results depend on the processing

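The ratio of *Thbs1* for mgR over WT in SMC-like barcodes stayed between 6.11 and 10.2 over 13 alternatives, that for mgR-LOS over mgR between 0.266 and 0.508 and that for mgR-LOS over WT between 2.16 and 3.94, all on the same side of 1. The value of 0.508, without the modulated subset, is not past 2-fold. Values outside the counting interval of the reported ratio were, for mgR over WT, mgR-LOS over mgR and mgR-LOS over WT where they apply: at least 200 genes per barcode 10.2 and 0.362; mitochondrial share at most 5% 6.11, 0.354 and 2.16, and at most 20% 0.359 for mgR-LOS over mgR; called doublets removed 8.35 and 0.403; a stricter gate 7.20, 0.425 and 3.06; named clusters 0.266 for mgR-LOS over mgR and 2.61 for mgR-LOS over WT; median-of-ratios scaling 0.364 for mgR-LOS over mgR; the mean over barcodes 7.72 for mgR over WT and 2.96 for mgR-LOS over WT; thinning to 1000 UMIs 0.408 for mgR-LOS over mgR and 3.94 for mgR-LOS over WT; and, chosen after the data were seen, without the modulated subset 7.23 and 0.508, and with the WT makeup of subsets 7.495 and 0.443.

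Of pairs past 2-fold, 5 for mgR-LOS over mgR became 3 at a mitochondrial share of at most 5% and 8 with no minimum level, and 6 for mgR-LOS over WT became 10 with no minimum level. Of 597 values for the other 49 ratios 473 lay within the reported counting interval. Among ratios reported as past 2-fold, 4 values changed direction: *Thbs2* for mgR over WT in endothelial-like barcodes (0.995 with at least 200 genes, 0.803 after thinning), *Thbs4* for mgR over WT (1.25) and *Comp* for mgR-LOS over WT (1.07) in fibroblast-like barcodes with the WT makeup. Ratios within 2-fold also crossed 1 under some alternatives and are not in that count. Examples for mgR-LOS over WT are *Thbs1* in fibroblast-like barcodes (0.704, at most 1.25) and in macrophage and monocyte-like barcodes (1.19, at least 0.615). Causes were not tested, the makeup among them. Its weighting sets the shares of subsets by construction. The subsets are gated on marker level, so a change in their share and a change of expression within cells cannot be told apart. At 2000 in place of 1000 UMIs 63 of 72 shares of barcodes were higher. No paired analysis was possible because each condition has 1 library, and no library could be left out for the same reason. Genes near 10 CPM in endothelial-like barcodes rest on fewer than 40 UMIs per library.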

Other observations

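The joint clustering, which left out the 6 members, showed *Thbs1* in clusters that got no name from their markers. Cluster 9, led by *Cxcl5*, *Fhl2* and *Fst*, had 251 CPM in 53 WT barcodes, 1268 in 947 of mgR and 580 in 520 of mgR-LOS. Some of its barcodes were SMC-like by the marker gate and are described with that class above. Cluster 12, led by *Igha*, *Ear2* and *Cd209a*, had 875 CPM in mgR and 210 in mgR-LOS. The B cell-like cluster of 209 mgR barcodes had 827 CPM from 1532 UMIs. The 146 B cell-like barcodes of the marker gate had 25.3 CPM from 30 UMIs, so most UMIs of that cluster came from other barcodes.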
